A study of Mus musculus with 16 samples.

Results

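The chemokine ligands, the small secreted or membrane-anchored proteins that steer leukocytes through tissue, were followed across 16 microarrays of mouse skin wounds. A gene was taken as a member when the platform annotation gave a probe set 1 symbol and that symbol was Ccl or Cxcl with a number, Cx3cl1, Xcl1, Pf4 or Ppbp. This found 52 of 45101 probe sets, which name 34 of the 18194 genes tested. Of the 34 genes, 13 had more than 1 probe set, and the 1 with the largest interquartile range over all arrays stood for the gene. A further probe set with a letter after the number and 4 probe sets with several symbols fell outside the rule.

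The wounds were incisions on the back of wild-type C57BL/6 mice labelled as female, made in a murine model of hypertrophic scarring, and total RNA was extracted with Trizol. Unstressed wounds carried no mechanical load, and stressed wounds were loaded. Tissue came from unstressed and stressed wounds on day 6 after injury, when loading had lasted 48 hours, and on day 14, when it had lasted 10 days. There were 4 arrays in each of these 4 groups, and the design text gives 4 mice per condition and day. The study concerns mechanical force, fibrosis and chemokines, and the comparisons below ask which ligand transcripts differed with loading and which with time. In whole wound tissue, fewer cells of a type and less RNA per cell cannot be told apart.

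Values are log signals, read as log2 and centred per probe set before deposit, so 0 is not an absolute level and only differences between arrays of the same gene carry meaning. Natural logs are possible, and each difference would then be larger on the log2 scale than printed. Whether a ligand or a cell type marker was detected at all could not be judged, and levels were not compared between genes. The number of arrays limits the precision. P-values are two-sided from limma, with Benjamini-Hochberg adjustment across the 18194 genes, and a gene was called when its adjusted p was under 0.05. Per-array values are listed in the order of replicates 1 to 4.

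The arrays did not form uniform groups. Replicates 3 and 4 of both day 14 groups had Xist signals of 5.98 to 6.3 and Y-linked means (3 genes) of -3.97 to -3.53, whereas the other 12 arrays had Xist signals of -0.53 to 0.81 and Y-linked means of -0.99 to 0.74. Xist is transcribed from the inactive X chromosome of females, and all 16 arrays are labelled female, so the values of the 12 arrays go against the label. At day 14 each class held 2 unstressed and 2 stressed arrays, so loading could be compared within it. At day 6 all arrays had low Xist, but replicates 1 and 2 of the unstressed group differed from replicates 3 and 4 in many ligand genes.

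Chemokines fall into classes by the spacing of their first cysteines. CXC ligands with a Glu-Leu-Arg motif recruit neutrophils through Cxcr2, and the interferon-induced CXC ligands act on T cells and natural killer cells through Cxcr3. Many CC ligands recruit monocytes, macrophages, eosinophils or T cells, and others maintain lymphoid tissue or epithelial surfaces. In skin wounds the inflammatory ligands are made early by keratinocytes, fibroblasts, endothelium and arriving leukocytes, and their transcription is commonly driven through NF-kappaB, interferon and STAT pathways.

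Cxcl2 and Cxcl10 fell steeply with time, and Cxcl1 and Cxcl3 form a family cluster with Cxcl2. Ccl12, Ccl8 and Cxcl13 passed the loading threshold at day 14. The upstream sequences of these 7 members are shown. Each is the 250 bases before the start of the gene from RefSeq (build GRCm38.p6), 5′ to 3′ on the gene's strand. Capitals mark matches to 4 motifs searched on both strands: the NF-kappaB consensus, the interferon-stimulated response element (GAAA, any 2 bases, GAAA), the STAT6 motif (TTC, any 4 bases, GAA) and the AP-1 motif (TGANTCA). Matches that overlap each other are in 1 capital run.
Cxcl1 (chr5:90890995-90891244): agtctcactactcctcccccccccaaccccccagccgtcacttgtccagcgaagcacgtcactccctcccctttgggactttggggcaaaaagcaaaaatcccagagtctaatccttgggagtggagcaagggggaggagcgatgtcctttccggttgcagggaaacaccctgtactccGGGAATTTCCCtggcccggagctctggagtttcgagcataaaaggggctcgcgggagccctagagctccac
Cxcl2 (chr5:90903649-90903898): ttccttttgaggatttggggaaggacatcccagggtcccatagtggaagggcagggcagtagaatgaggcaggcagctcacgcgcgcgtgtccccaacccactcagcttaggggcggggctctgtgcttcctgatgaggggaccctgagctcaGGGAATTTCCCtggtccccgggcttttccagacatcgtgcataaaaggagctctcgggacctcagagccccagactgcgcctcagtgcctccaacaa
Cxcl3 (chr5:90785851-90786100): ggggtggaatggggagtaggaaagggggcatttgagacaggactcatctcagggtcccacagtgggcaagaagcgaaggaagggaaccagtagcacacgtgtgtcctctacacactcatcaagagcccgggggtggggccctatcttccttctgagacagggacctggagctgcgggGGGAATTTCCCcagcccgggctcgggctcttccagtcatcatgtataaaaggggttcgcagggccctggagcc
Cxcl10 (chr5:92348890-92349139): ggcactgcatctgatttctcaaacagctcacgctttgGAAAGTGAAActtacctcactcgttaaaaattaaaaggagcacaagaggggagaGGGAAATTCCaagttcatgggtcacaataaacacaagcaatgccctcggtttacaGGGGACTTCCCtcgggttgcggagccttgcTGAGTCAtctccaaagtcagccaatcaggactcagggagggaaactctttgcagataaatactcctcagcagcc
Ccl12 (chr11:82101595-82101844): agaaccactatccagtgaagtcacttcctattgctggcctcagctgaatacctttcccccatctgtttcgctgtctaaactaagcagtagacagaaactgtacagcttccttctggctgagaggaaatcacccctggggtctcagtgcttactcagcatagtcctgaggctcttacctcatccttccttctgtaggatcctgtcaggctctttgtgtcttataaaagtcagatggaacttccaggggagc
Ccl8 (chr11:82114935-82115184): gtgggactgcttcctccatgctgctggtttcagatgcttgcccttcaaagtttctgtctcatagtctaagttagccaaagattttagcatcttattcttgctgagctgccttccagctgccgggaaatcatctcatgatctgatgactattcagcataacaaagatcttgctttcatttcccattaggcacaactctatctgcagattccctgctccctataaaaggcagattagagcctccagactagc
Cxcl13 (chr5:95956689-95956938): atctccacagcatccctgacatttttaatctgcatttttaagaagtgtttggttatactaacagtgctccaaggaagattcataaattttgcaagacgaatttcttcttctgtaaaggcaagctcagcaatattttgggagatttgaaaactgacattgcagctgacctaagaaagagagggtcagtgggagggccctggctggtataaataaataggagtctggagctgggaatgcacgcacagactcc
Cxcl1, Cxcl2, Cxcl3, Ccl12, Ccl8 and Cxcl13 are on the plus strand and Cxcl10 on the minus strand.

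Cxcl1, Cxcl2 and Cxcl3 held the identical 10 bases GGGAATTTCC, which began 71, 97 and 73 bases before the start. Cxcl10 held a match to the response element (GAAAGTGAAA, 213 bases before the start), overlapping NF-kappaB matches and the AP-1 match TGAGTCA. The windows of Ccl12, Ccl8 and Cxcl13 held none of these letters, which says nothing about the factors. Ccl3 and Cxcl9, which are not printed, fell more than Cxcl10 in unstressed wounds (-2.81, -2.58 and -2.38). Their windows held none of the letters either. Upstream windows were available for 24 of the 34 genes (25 windows). Ccl2, Ccl4, Ccl5, Ccl7, Ccl11, Ccl24, Cxcl5, Cxcl11, Cxcl16 and Cxcl17 had none and are named only. The NF-kappaB consensus occurred in 7 of the 25 windows (28.0%), those of Ccl1, Ccl9, Ccl20, Cxcl1, Cxcl2, Cxcl3 and Cxcl10, and in 7.25% of 32851 windows of the same length. The response element occurred in 2 (8.0% against 2.98%), the AP-1 motif in 3 (12% against 6.75%) and the STAT6 motif in 1, Ccl17 (4.0% against 5.85%). These matches are descriptions of the letters, not binding sites.

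**Figure D1:**
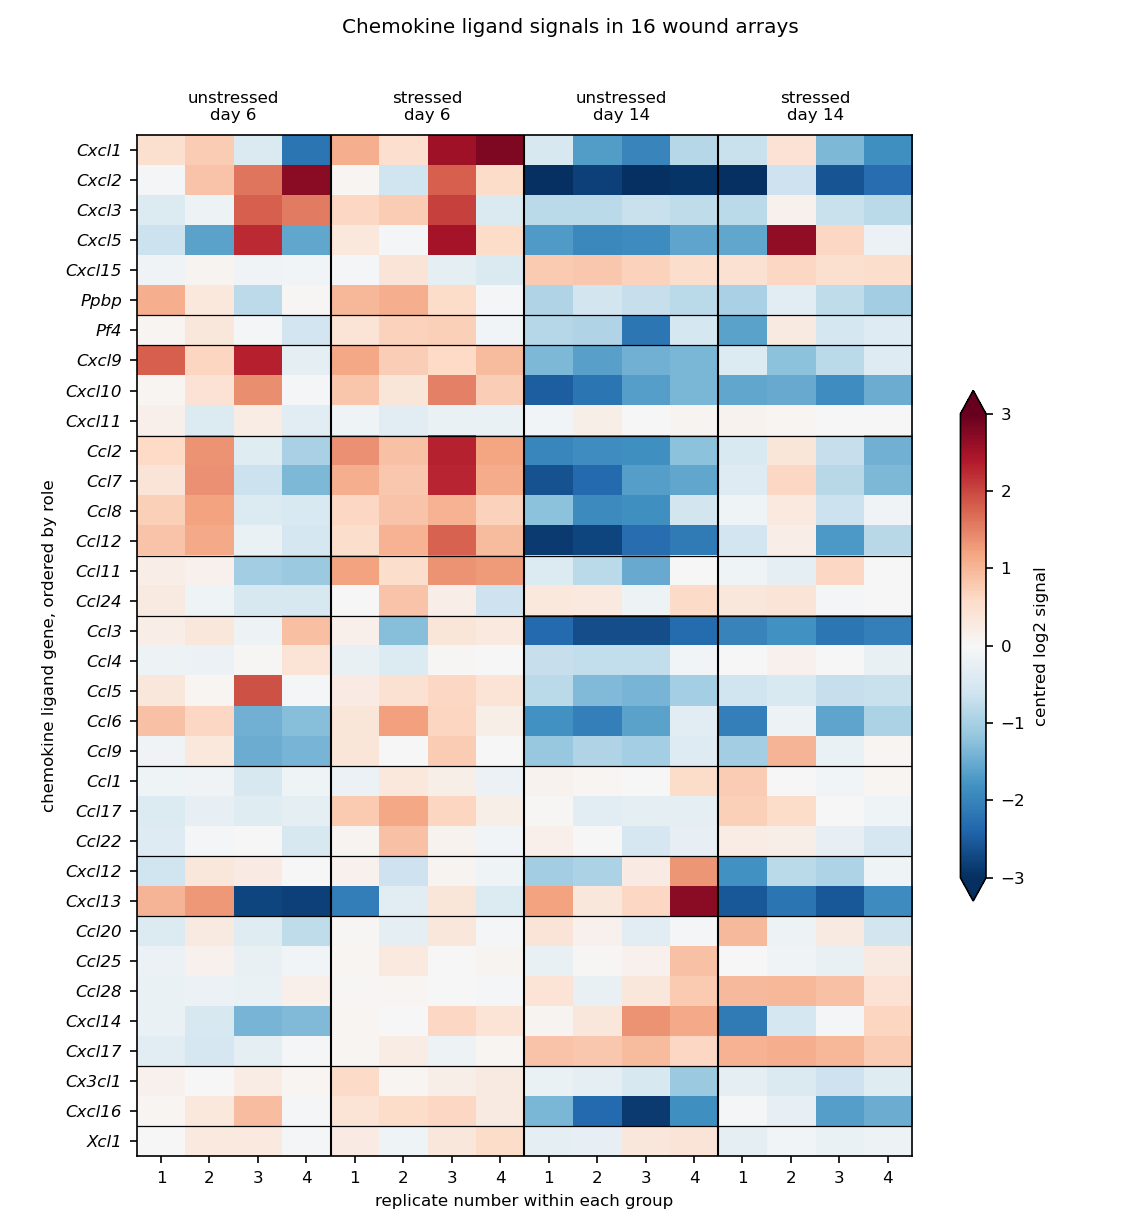
Centred log2 signal of the 34 chemokine ligand genes (rows, ordered by role) in the 16 arrays (columns, by group and replicate number), with colours capped at -3 and 3. Ccl12, Ccl3, Cxcl2 and Cxcl10 are lower in every day 14 array than in every day 6 array of the same kind of wound, and Cxcl13 lies at or below -1.88 in all 4 stressed arrays of day 14, in unstressed replicates 3 and 4 of day 6 and in stressed replicate 1 of day 6.

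At day 14, after 10 days of loading, stressed wounds held more Ccl12 and Ccl8 transcript and less Cxcl13 transcript than unstressed wounds. Ccl12 and Ccl8, both monocyte chemoattractant proteins, were higher by 1.77 and 1.23 on the log2 scale (3.42-fold and 2.34-fold), and Cxcl13, the B cell attractant of lymphoid follicles, was lower by 3.51 (11.4-fold). These were 3 of 34 members called, against 8.15% of all genes (3.88% higher, 4.27% lower). The loading difference was above 0 in 25 of 34 members (51.2% of all genes), with a median of 0.35 over the members and 0.01 over all genes. At an unadjusted p of 0.05, 9 members were higher and 2 lower, against 11.1% and 12.9% of all genes. The stressed and unstressed arrays did not overlap for 6 members that were higher, Ccl12, Ccl3, Ccl5, Ccl7, Cxcl5 and Cxcl9 (5.86% of all genes), and for 1 that was lower, Cxcl13 (4.52%).

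The 4 monocyte chemoattractant proteins are Ccl2, Ccl7, Ccl8 and Ccl12. Of these, Ccl2, Ccl7 and Ccl12 bind Ccr2 and draw monocytes from blood. The p-values measure only the spread between these arrays. In the RefSeq assembly GRCm38.p6 the 4 genes follow one another on chromosome 11 with the eotaxin Ccl11 among them. All 4 lay above 0 at day 14, with a median loading difference of 1.39, and 2 of 4 were called. Ccl12 read -2.88, -2.76, -2.28 and -2.11 in unstressed and -0.57, 0.19, -1.73 and -0.83 in stressed wounds. Every stressed array was above every unstressed one, and the difference was 1.77 (SE 0.41, limma adjusted p = 0.017).

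Ccl8 read -1.22, -1.91, -1.83 and -0.55 in unstressed and -0.13, 0.29, -0.65 and -0.1 in stressed wounds. Unstressed replicate 4 lay above stressed replicate 3, so the groups overlapped, and the difference of 1.23 (SE 0.36) had a limma adjusted p of 0.049. With replicate number as a block within each day, the adjusted p in limma was 0.059 and the call was lost. Same-numbered day 14 arrays deviated together but also share an Xist class, so pairing and class cannot be told apart. For the day 6 arrays of the same fit pairing is not shown. Ccl7 read -2.61, -2.33, -1.65 and -1.55 in unstressed and -0.38, 0.63, -0.84 and -1.35 in stressed wounds, with no overlap. Its difference was 1.55 (SE 0.53, limma adjusted p = 0.085). Ccl2 read -1.96, -1.87, -1.85 and -1.22 in unstressed and -0.45, 0.36, -0.69 and -1.43 in stressed wounds, where replicate 4 fell inside the unstressed range, and its difference was 1.17 (SE 0.46, limma adjusted p = 0.13). Ccl2 and Ccl7 therefore did not pass the threshold.

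In the low-Xist arrays (replicates 1 and 2) the day 14 loading differences of the 4 genes were larger than in the high-Xist arrays (replicates 3 and 4). Ccl12 differed by 2.63 and 0.91, Ccl7 by 2.59 and 0.51, Ccl2 by 1.86 and 0.48, and Ccl8 by 1.64 and 0.81, in that order of classes. All 34 members together had a median of 0.51 in replicates 1 and 2, with 29 above 0, and of 0.1 in replicates 3 and 4, with 19 above 0. Whether the classes differ in their loading effect was not tested.

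Cxcl13 binds Cxcr5 and organises B cell follicles. It read 1.21, 0.34, 0.61 and 2.7 in unstressed wounds of day 14 and -2.55, -2.19, -2.55 and -1.88 in stressed ones. The groups lay far apart, and the difference was -3.51 (SE 0.86, 95% interval -5.33 to -1.68, limma adjusted p = 0.022). Its second probe set, in a fit of every probe set, gave -1.12 (SE 0.31, limma adjusted p = 0.038), with 1.48, 1.13, 0.8 and 2.02 in unstressed and 0.33, 0.22, 0.29 and 0.13 in stressed wounds. Within the low-Xist arrays the difference was -3.14 and within the high-Xist arrays -3.87. The measured B cell markers (4 genes, including Ms4a1, Cd79a and Cd79b) had no called member at day 14, with 4 of 4 loading differences above 0 and mean signals of -0.1 to 0.17 in unstressed and 0.08 to 0.3 in stressed arrays. Cxcl12, the stromal ligand of Cxcr4, read -1.05, -0.95, 0.25 and 1.32 in unstressed and -1.81, -0.81, -0.92 and -0.13 in stressed wounds, overlapping, with a difference of -0.81 (limma adjusted p = 0.29).

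Cxcl16, a membrane-anchored ligand of Cxcr6 that also takes up oxidised lipoprotein, read -1.36, -2.34, -2.86 and -1.84 in unstressed and -0.05, -0.25, -1.65 and -1.49 in stressed wounds of day 14. Its difference of 1.24 (SE 0.37) had a limma adjusted p that rounds to 0.05 and was not called. With the replicate block it was called (limma adjusted p = 0.015), and its other probe set gave 0.89 (SE 0.19, limma adjusted p = 0.014 over every probe set). Cx3cl1, the membrane-anchored ligand of Cx3cr1 on monocytes, differed by 0.09 (limma adjusted p = 0.81).

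Ccl3, Ccl4, Ccl5, Ccl6 and Ccl9 all lay above 0 at day 14, with none of the 5 called in limma, 1 at an unadjusted p of 0.05, and a median of 0.54. Ccl3, a macrophage inflammatory protein, read -2.34, -2.65, -2.65 and -2.31 in unstressed and -2, -1.81, -2.17 and -2.04 in stressed wounds, and Ccl5, made by T cells and macrophages, read -0.82, -1.32, -1.39 and -1.02 against -0.6, -0.45, -0.69 and -0.67. Neither pair of groups overlapped, yet the differences of 0.48 and 0.54 had limma adjusted p-values of 0.36 and 0.32 in the fit, which pools the spread of all 4 groups. Ccl4, the close relative and neighbour of Ccl3, read -0.68, -0.73, -0.73 and -0.08 against 0.01, 0.14, 0.02 and -0.22, a difference of 0.54 (SE 0.17, limma adjusted p = 0.065). The mouse ligands of Ccr1, Ccl6 and Ccl9, differed by 0.27 and 0.82 (limma adjusted p = 0.82 and 0.26), and the second Ccl9 probe set lay on the other side of 0 at -0.15.

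Among the neutrophil-attracting CXC ligands none of 6 was called at day 14. Cxcl5, an epithelial neutrophil attractant, had the largest difference, 2.16 (SE 0.87, limma adjusted p = 0.14), and its values were -1.69, -1.93, -1.89 and -1.58 in unstressed and -1.57, 2.65, 0.63 and -0.18 in stressed wounds. The stressed arrays spread over more than 4 units, and the lowest of them lay next to the highest unstressed array. Cxcl2 differed by 0.86, Cxcl1 by 0.39, Cxcl3 by 0.22, Cxcl15 by -0.18 and the platelet protein Ppbp by -0.03, with limma adjusted p-values of 0.42 to 0.96. The Cxcr3 ligand Cxcl9 did not overlap, with -1.35, -1.63, -1.45 and -1.36 in unstressed and -0.4, -1.22, -0.81 and -0.38 in stressed wounds, and its difference was 0.74 (limma adjusted p = 0.28). Cxcl10 differed by 0.32 and Cxcl11, which RefSeq lists as a transcribed pseudogene in this strain, by -0.01.

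Of the epithelial ligands, Cxcl14, a constitutive product of skin epithelium, lay below 0 at day 14 with -1.24 (SE 0.47, limma adjusted p = 0.12). Its values were 0.09, 0.34, 1.34 and 1.13 in unstressed and -2.12, -0.52, -0.06 and 0.65 in stressed wounds. In both classes the stressed arrays were lower on average (by -1.54 in replicates 1 and 2 and -0.94 in replicates 3 and 4). Ccl28, the Ccr10 ligand of mucosal epithelium, read 0.4, -0.22, 0.33 and 0.78 against 0.97, 1, 0.88 and 0.43, a difference of 0.5 (limma adjusted p = 0.1). Its other 2 probe sets gave 0.01 and 0.05. Cxcl17, Ccl20 and Ccl25 differed by 0.15, 0.08 and -0.23 with limma adjusted p-values of 0.5 to 0.9.

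The called set at day 14 depended on single arrays. Without stressed replicate 2 no member was called in limma (9 at an unadjusted p of 0.05; Ccl12 at 1.46, adjusted p = 0.065), without stressed replicate 1 only Ccl12 was called of the 34, and without stressed replicate 4 there were 7 calls, adding Ccl4, Ccl7, Ccl28, Cxcl14 and Cxcl16 while Ccl8 was lost (adjusted p = 0.058). Cxcl13 lost its call without unstressed replicate 4 (-3.01, adjusted p = 0.054), stressed replicate 1 (-3.42, 0.057) or stressed replicate 2 (-3.54, 0.059), and Ccl8 without any 1 of 6 arrays (unstressed replicates 1, 2 and 3 and stressed replicates 1, 2 and 4; differences of 1.05 to 1.28, adjusted p of 0.058 to 0.15). Cxcl16 gained a call without unstressed replicate 1 or stressed replicates 3 or 4 (1.45 to 1.51), and Ccl4 and Ccl28 gained one without unstressed replicate 4 (0.7 and 0.65).

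The scaling and the choice of arrays for the spread mattered too. After quantile normalization Ccl12 differed by 1.21, Ccl8 by 0.87 and Cxcl13 by -2.61 (limma adjusted p = 0.37, 0.37 and 0.51), and none was called. When the 2 day 14 groups were fitted alone, Ccl12 (adjusted p = 0.075 in limma) and Ccl8 (0.11) lost their calls and Cxcl13 kept its call. Over all genes, arrays of the same group differed with an SD of 0.255 to 0.547 at day 6 and 0.328 to 0.74 at day 14. The main fit uses 1 spread per gene for all 4 groups, so its day 14 loading p-values may be too small. With array weights Cxcl13 (-3.12, adjusted p = 0.058 in limma) lost its call, and Ccl4, Ccl7, Ccl28 and Cxcl16 gained one. The sign of each of these 3 members was the same in all 19 alternatives run.

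**Figure D2:**
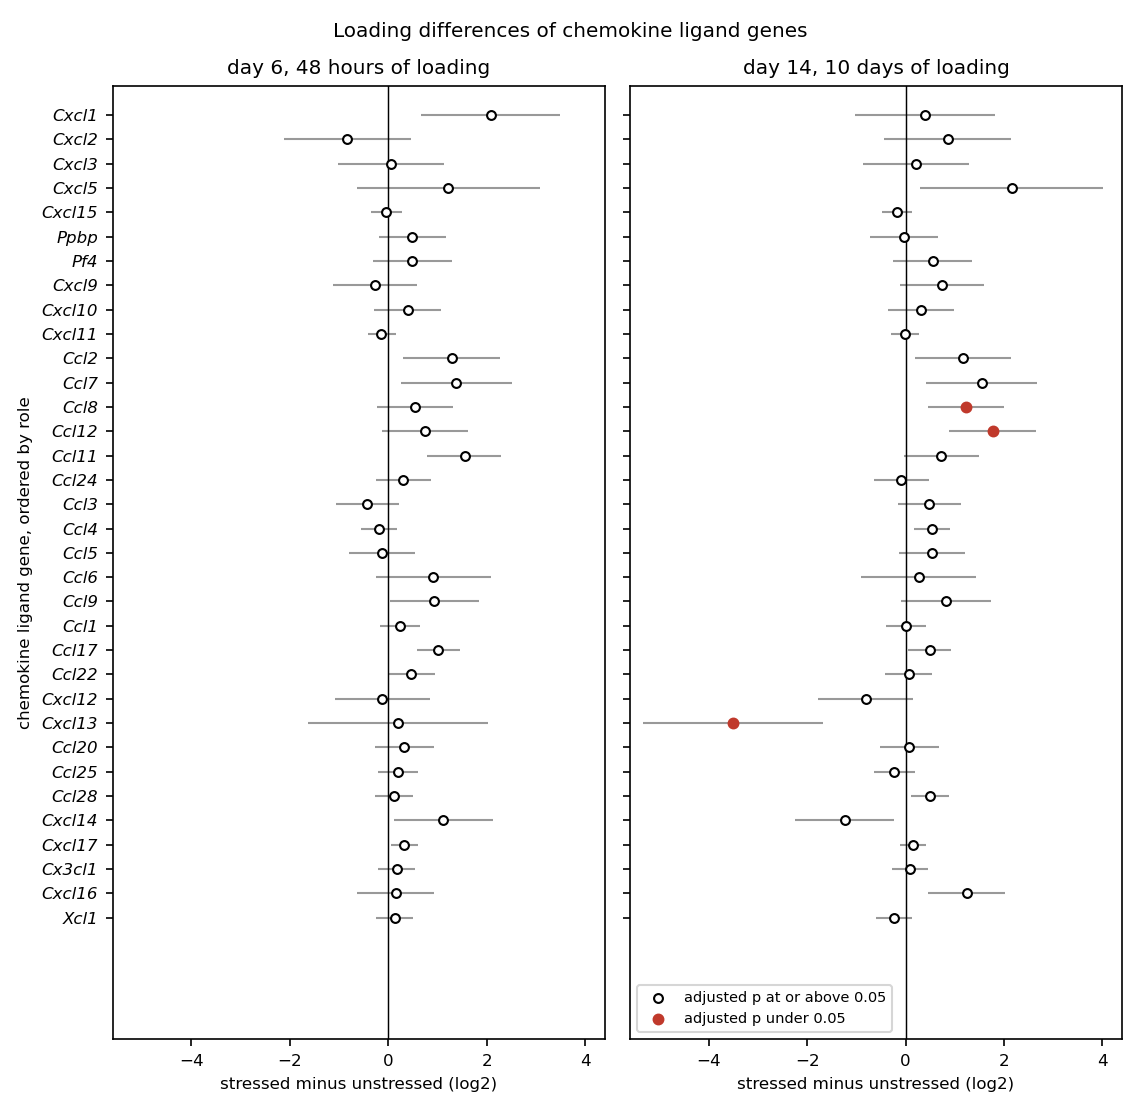
Stressed minus unstressed log2 difference of each chemokine ligand gene at day 6 (left) and day 14 (right), with points for the limma estimate and bars for its 95% interval. At day 6 no point is filled, while at day 14 Ccl8 and Ccl12 (higher) and Cxcl13 (lower) are filled as called.

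At day 6, after 48 hours of loading, no chemokine ligand passed the threshold, but most lay higher in stressed wounds. The loading difference was above 0 in 26 of 34 members (51.2% of all genes), and the median was 0.32 against 0.01 over all genes. In limma 0 of 34 members were called, against 0.055% of all genes, and 8 members had an unadjusted p under 0.05, all higher (3.26% of all genes were higher at that p). These were Ccl2, Ccl7, Ccl9, Ccl11, Ccl17, Cxcl1, Cxcl14 and Cxcl17. The arrays of Ccl11, Ccl17 and Cxcl14 did not overlap, against 3.35% of all genes.

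Ccl11, eotaxin, acts on eosinophils through Ccr3. It read 0.19, 0.13, -1.04 and -1.12 in unstressed and 1.2, 0.53, 1.35 and 1.27 in stressed wounds, a difference of 1.55 (SE 0.36, limma adjusted p = 0.2). Ccl17, which draws Ccr4-bearing T cells and is made by dendritic cells, read -0.4, -0.25, -0.36 and -0.29 against 0.78, 1.17, 0.65 and 0.17. The 4 unstressed arrays of Ccl17 lay within a narrow band below all stressed arrays, and the difference was 1.02 (SE 0.21, limma adjusted p = 0.13). The other Ccr4 ligand, Ccl22, read -0.38, -0.07, 0.02 and -0.48 against 0.08, 0.88, 0.11 and -0.09 (0.47, limma adjusted p = 0.81), and the Ccr8 ligand Ccl1 read -0.13, -0.11, -0.47 and -0.12 against -0.18, 0.32, 0.17 and -0.18 (0.24, adjusted p = 0.95).

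Cxcl1, the keratinocyte-derived neutrophil attractant, had the largest day 6 difference of the members, 2.09 (SE 0.67, limma adjusted p = 0.46). It read 0.47, 0.76, -0.43 and -2.18 in unstressed and 1.09, 0.51, 2.55 and 2.81 in stressed wounds. The spread within both groups was wide, and stressed replicate 2 lay below unstressed replicate 2. Its other probe sets gave 0.71 and 1.29 in the same direction (limma adjusted p = 0.42 and 0.31 over every probe set). Cxcl2, which binds the same receptor, lay the other way at -0.83 (SE 0.61, limma adjusted p = 0.94), with -0.05, 0.85, 1.6 and 2.7 in unstressed and 0.05, -0.59, 1.79 and 0.54 in stressed wounds.

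Ccl2 read 0.59, 1.34, -0.36 and -0.98 in unstressed and 1.37, 0.88, 2.32 and 1.19 in stressed wounds of day 6, and its difference was 1.29 (SE 0.46, limma adjusted p = 0.56). Ccl7 read 0.38, 1.38, -0.64 and -1.34 against 1.09, 0.82, 2.29 and 1.12 (1.38, SE 0.53, limma adjusted p = 0.63). For both, unstressed replicates 1 and 2 were higher than unstressed replicates 3 and 4, and replicate 2 fell inside the stressed range. Ccl12 and Ccl8 showed the same division, with 0.86, 1.13, -0.19 and -0.52 and with 0.72, 1.2, -0.42 and -0.46 in the unstressed arrays. In the stressed arrays Ccl12 read 0.53, 1.04, 1.77 and 0.95 and Ccl8 read 0.63, 0.85, 1.05 and 0.68. Their differences were 0.75 and 0.54 (limma adjusted p = 0.87 and 0.92).

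The day 6 differences depended on which arrays entered. Same-numbered stressed and unstressed arrays of day 6 are not shown to belong together (correlations of -0.41 to 0). Splitting both groups by replicate number is therefore arbitrary. With stressed and unstressed replicates 1 and 2 alone, the difference was 0.16 for Ccl2, 0.07 for Ccl7, -0.21 for Ccl12, -0.22 for Ccl8, 0.7 for Ccl11 and 0.18 for Cxcl1, and with replicates 3 and 4 alone it was 2.42, 2.69, 1.71, 1.3, 2.39 and 3.99. Both groups differ between these pairs of replicates: for Cxcl1 the stressed means were 0.8 and 2.68 and the unstressed means 0.62 and -1.31, and for Ccl2 they were 1.12 and 1.75 and 0.97 and -0.67. Ccl17 differed by 1.31 and 0.74 in these pairs of replicates. Cxcl13 changed sides: its day 6 arrays read 1.01, 1.31, -2.75 and -2.8 in unstressed and -2.07, -0.34, 0.37 and -0.42 in stressed wounds, giving -2.37 in replicates 1 and 2, 2.75 in replicates 3 and 4 and 0.19 (SE 0.86) over all. The same division was present in Ccl6 (0.87, 0.63, -1.45 and -1.28), Ccl9 (-0.1, 0.32, -1.49 and -1.39) and Cxcl14 (-0.21, -0.48, -1.39 and -1.32). The mean of the 14 macrophage and monocyte markers ranged from -0.37 to 0.63 over the unstressed day 6 arrays and from 0.29 to 0.72 over the stressed ones, and its part in these differences was not tested. Dropping unstressed replicates 1 and 2, or 3 and 4, which was chosen after seeing the data, left 0 members called in limma (13 and 6 at an unadjusted p of 0.05). With all 4 stressed arrays kept, Ccl11 then differed by 2.17 and 0.93 (limma adjusted p = 0.051 and 0.8), Ccl2 by 2.11 and 0.47, Ccl7 by 2.32 and 0.45, Cxcl1 by 3.05 and 1.12 and Ccl17 by 1.02 in both cases. By contrast, quantile normalization called Ccl11 (2.32, adjusted p = 0.019 in limma) and Ccl17 (1.54, 0.0037), and array weights called these and Ccl2, Ccl7 and Cxcl1 (1.81, 1.95 and 2.85).

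**Figure D3:**
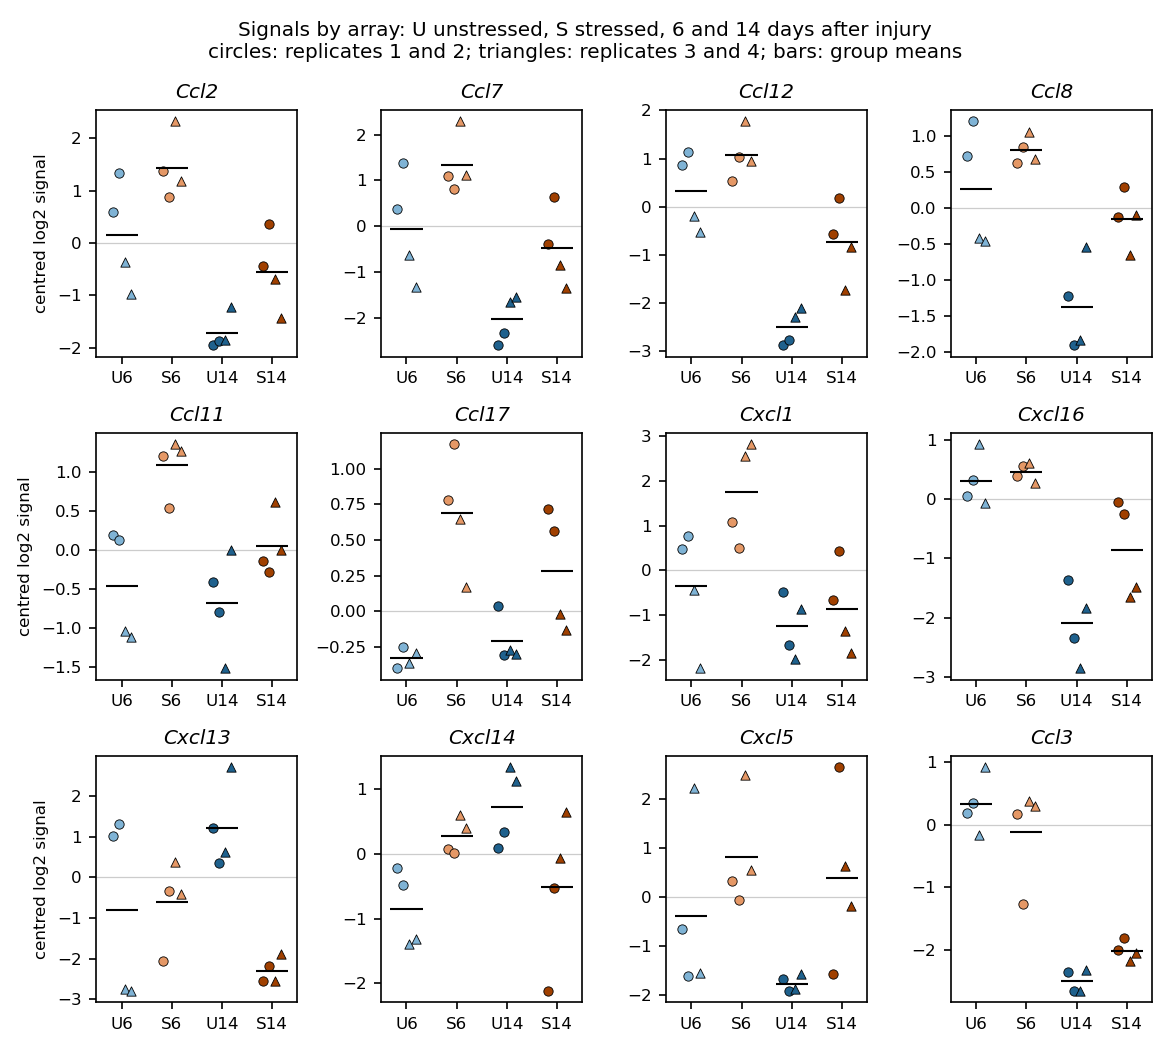
Centred log2 signal of 12 chemokine ligand genes in each array (points; circles replicates 1 and 2, triangles replicates 3 and 4), with bars at the group means; U6 and S6 are unstressed and stressed wounds of day 6, U14 and S14 of day 14. Ccl12 and Cxcl13 separate stressed from unstressed arrays at day 14, and the unstressed day 6 arrays of Ccl2, Ccl7, Ccl12, Ccl8, Ccl11 and Cxcl13 fall into circles above triangles.

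Whether loading acted differently at the 2 days was tested as the difference of the 2 loading effects. In limma 0 of 34 members were called, against 0.0385% of all genes, and 4 had an unadjusted p under 0.05 (10.1% of all genes). The change was above 0 in 14 of 34 members (50.1% of all genes), with a median of -0.12 against 0 over all genes. Cxcl14 went from 1.12 at day 6 to -1.24 at day 14, a change of -2.36 (SE 0.66, unadjusted p = 0.0028, limma adjusted p = 0.25), and Cxcl13 changed by -3.7 (SE 1.22, limma adjusted p = 0.31). Ccl4 and Ccl3 changed upward by 0.73 and 0.91 (limma adjusted p = 0.32 and 0.49). The called differences of Ccl12 (0.75 at day 6, 1.77 at day 14) and Ccl8 (0.54 and 1.23) are therefore not shown to be specific to day 14: their changes were 1.02 (SE 0.58) and 0.69 (SE 0.51). Without stressed day 14 replicate 4, 1 member was called, Cxcl14 (-2.75, limma adjusted p = 0.047), and without the high-Xist arrays 3 were, among them Cxcl14 (-2.66, 0.021) and Ccl4 (0.96, 0.043).

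From day 6 to day 14 more chemokine ligands fell than rose. In unstressed wounds 15 members fell and 3 rose in limma, 18 of 34 called against 55% of all genes (31.8% lower, 23.1% higher), with a median of -0.6 against -0.09 over all genes. There 12 members lay above 0 (45.4% of all genes), and the days did not overlap for 12 that were lower (27.9%) and 4 that were higher (21%). In stressed wounds 18 fell and 3 rose, 21 of 34 against 58.3% of all genes (34.3% lower, 24% higher), with a median of -0.87 against -0.14. There 8 members lay above 0 (43.9%), and the days did not overlap for 14 that were lower (29.1%) and 4 that were higher (20.4%). The share of members called was thus near that of all genes, and the members leaned further downward. Of the 34 members, 14 (41.2%) fell in both kinds of wound against 25.5% of all genes, and 2 (5.88%) rose in both against 18.2%.

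Cxcl2 had the largest fall of the members. It read -0.05, 0.85, 1.6 and 2.7 in unstressed wounds of day 6 and -3.08, -2.81, -3.32 and -2.95 at day 14, and fell by 4.32 on the log2 scale (SE 0.61, limma adjusted p = 6.4e-05). In stressed wounds it went from 0.05, -0.59, 1.79 and 0.54 to -3.23, -0.61, -2.6 and -2.29 (-2.63, limma adjusted p = 0.0021). All day 14 arrays lay below all day 6 arrays in both kinds of wound. Cxcl3 read -0.42, -0.16, 1.8 and 1.57 and then -0.82, -0.82, -0.66 and -0.76 in unstressed wounds (-1.46, adjusted p = 0.024 in limma), and 0.62, 0.76, 2.05 and -0.44 and then -0.82, 0.13, -0.67 and -0.82 in stressed wounds (-1.29, limma adjusted p = 0.04).

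Cxcl1 fell in stressed wounds by 2.59 (SE 0.67, limma adjusted p = 0.0043), to -0.66, 0.43, -1.35 and -1.83 at day 14. In unstressed wounds it read -0.47, -1.67, -1.97 and -0.86 at day 14 and the change was -0.9 (limma adjusted p = 0.26). Its probe sets disagreed over time: the other 2 gave 0.33 and 0.07 in stressed and 0.67 and 0.79 in unstressed wounds, the 0.67 with a limma adjusted p of 0.014 over every probe set. The time course of Cxcl1 therefore depends on the probe set. Cxcl5 read -0.65, -1.61, 2.23 and -1.56 in unstressed and 0.32, -0.06, 2.49 and 0.55 in stressed wounds of day 6, and its changes of -1.38 and -0.44 were not called (limma adjusted p = 0.19 and 0.68).

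Cxcl15, described in mouse lung epithelium, rose by 0.75 and 0.61 (limma adjusted p = 0.00073 and 0.0026 in unstressed and stressed wounds). Its values were -0.1, 0.09, -0.1 and -0.08 and then 0.79, 0.81, 0.68 and 0.52 in unstressed wounds, and -0.05, 0.38, -0.26 and -0.43 and then 0.46, 0.62, 0.47 and 0.53 in stressed ones. It was the only 1 of the 6 neutrophil-attracting ligands that rose in this fit, but its second probe set was called in neither (0.23 and 0.36, limma adjusted p = 0.31 and 0.11 over every probe set). The platelet granule proteins Ppbp and Pf4 fell in both: Ppbp by 0.9 and 1.43 (limma adjusted p = 0.027 and 0.0018) and Pf4 by 1.05 and 0.99 (0.029 and 0.035). Ppbp read 1.08, 0.32, -0.78 and 0.03 and then -0.91, -0.55, -0.7 and -0.8 in unstressed wounds, and 1, 1.1, 0.55 and -0.03 and then -0.97, -0.32, -0.76 and -1.04 in stressed wounds. Pf4 read 0.07, 0.34, -0.07 and -0.58 and then -0.86, -0.9, -2.16 and -0.53 in unstressed wounds, and 0.4, 0.69, 0.71 and -0.08 and then -1.6, 0.26, -0.53 and -0.39 in stressed wounds. Both overlapped in unstressed wounds, and Pf4 overlapped in stressed wounds too.

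The interferon-induced ligands Cxcl9 and Cxcl10 fell in both kinds of wound. Cxcl10 read 0.07, 0.44, 1.4 and -0.07 in unstressed wounds of day 6 and -2.48, -2.19, -1.65 and -1.36 at day 14 (-2.38, SE 0.32, limma adjusted p = 4.3e-05). In stressed wounds it read 0.84, 0.37, 1.5 and 0.73 and then -1.55, -1.52, -1.86 and -1.49 (-2.46, limma adjusted p = 3.6e-05), and the 2 falls differed by -0.08 (SE 0.45). Cxcl9 read 1.79, 0.65, 2.34 and -0.26 in unstressed and 1.15, 0.74, 0.6 and 0.94 in stressed wounds of day 6, and fell by 2.58 and 1.56 (limma adjusted p = 0.00014 and 0.0044). Its second probe set fell by 0.92 in unstressed wounds (limma adjusted p = 0.018 over every probe set) and gave -0.35 in stressed wounds (0.32). The third ligand, Cxcl11, read 0.15, -0.4, 0.22 and -0.32 in unstressed wounds of day 6 and -0.09, 0.17, 0.02 and 0.08 at day 14, with changes of 0.13 and 0.27 that were not called (limma adjusted p = 0.42 and 0.1).

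All 4 monocyte chemoattractant proteins fell in both kinds of wound, with medians of -1.93 in unstressed and -1.81 in stressed wounds and no overlap between the days for any of them. Ccl12 fell by 2.83 and 1.81 (limma adjusted p = 8.5e-05 and 0.002), Ccl7 by 1.98 and 1.82 (0.0061 and 0.0092), Ccl2 by 1.87 and 1.99 (0.0035 and 0.0021) and Ccl8 by 1.64 and 0.95 (0.0018 and 0.035), in unstressed and stressed wounds. Ccl11 read -0.41, -0.8, -1.52 and 0 in unstressed and -0.14, -0.29, 0.61 and 0 in stressed wounds of day 14, and fell in stressed wounds by 1.04 (limma adjusted p = 0.021), while its change in unstressed wounds was -0.22 (adjusted p = 0.61). The eotaxin Ccl24 was not called in either (0.46 and 0.07), with 0.27, -0.13, -0.47 and -0.49 in unstressed and -0.02, 0.86, 0.19 and -0.61 in stressed wounds of day 6, and 0.32, 0.3, -0.15 and 0.57 and 0.35, 0.39, -0.07 and 0.02 at day 14.

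Ccl3 fell by 2.81 in unstressed wounds (SE 0.3, limma adjusted p = 8.9e-06) and by 1.89 in stressed wounds (adjusted p = 0.00015 in limma). Its day 6 values were 0.19, 0.34, -0.16 and 0.91 in unstressed and 0.16, -1.27, 0.37 and 0.29 in stressed wounds, all above every day 14 value of the same kind of wound. Ccl5 read 0.35, 0.05, 1.91 and -0.05 in unstressed and 0.24, 0.45, 0.62 and 0.42 in stressed wounds of day 6, and fell by 1.7 and 1.03 (limma adjusted p = 0.00049 and 0.011). Ccl4 read -0.15, -0.18, 0.04 and 0.41 in unstressed and -0.23, -0.42, 0.03 and -0.01 in stressed wounds of day 6. It fell in unstressed wounds by 0.58 (limma adjusted p = 0.01) and differed by 0.14 in stressed wounds (adjusted p = 0.49). Ccl6 read 0.37, 1.24, 0.64 and 0.17 in stressed wounds of day 6 and -2.04, -0.15, -1.59 and -0.95 at day 14, a fall of 1.79 (limma adjusted p = 0.012), and its unstressed day 14 arrays read -1.81, -2.05, -1.61 and -0.32 (-1.14, adjusted p = 0.089). The second Ccl6 probe set was not called in either (-0.48 in unstressed and -1.18 in stressed wounds, limma adjusted p = 0.45 and 0.06 over every probe set). The Ccl9 probe set used was not called (-0.2 and -0.32), while its other probe set gave 0.02 in unstressed wounds (limma adjusted p = 0.98) and fell by 1.1 in stressed wounds (0.045). The former read 0.37, 0.02, 0.75 and -0.02 in stressed wounds of day 6, and -1.13, -0.9, -1.03 and -0.39 in unstressed and -1.04, 1.01, -0.2 and 0.06 in stressed wounds of day 14.

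Cxcl16 fell by 2.41 in unstressed wounds (SE 0.37, limma adjusted p = 0.00012) from 0.05, 0.32, 0.93 and -0.06, and by 1.33 in stressed wounds (adjusted p = 0.0069 in limma) from 0.4, 0.56, 0.62 and 0.28. Its other probe set lay on the same side, with -1.28 and -0.46 (adjusted p = 0.00016 and 0.062 over every probe set). The 4 probe sets of Cx3cl1 differed in sign. The 1 used fell by 0.62 and 0.7 (limma adjusted p = 0.0077 and 0.0034), with 0.13, 0.01, 0.22 and 0.05 and then -0.21, -0.28, -0.47 and -1.12 in unstressed wounds, and 0.57, 0.06, 0.18 and 0.28 and then -0.28, -0.44, -0.63 and -0.37 in stressed wounds. Another rose by 0.34 and 0.41 (limma adjusted p = 0.044 and 0.016 over every probe set), so the direction of this gene depends on the probe set. Xcl1, the lymphotactin of T and natural killer cells, fell in stressed wounds by 0.44 (limma adjusted p = 0.046), from 0.25, -0.14, 0.35 and 0.56 to -0.28, -0.09, -0.2 and -0.16, and read -0.02, 0.29, 0.3 and -0.07 and then -0.26, -0.24, 0.34 and 0.38 in unstressed wounds.

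Of the 5 epithelial and mucosal ligands, 2 rose and none fell in each kind of wound, where 23.1% and 24% of all genes rose. The 2 were Cxcl14 and Cxcl17 in unstressed wounds and Ccl28 and Cxcl17 in stressed wounds. The medians were 0.43 in unstressed wounds, where all 5 lay above 0, and 0.12 in stressed wounds, where 3 lay above and 2 below. Cxcl17, a mucosal ligand, rose by 1.09 and 0.92 (SE 0.13 for both, limma adjusted p = 1.5e-05 and 5.4e-05), from -0.33, -0.5, -0.26 and -0.05 to 0.85, 0.82, 0.95 and 0.62 in unstressed wounds and from 0.05, 0.22, -0.15 and 0.06 to 1.04, 1.08, 1 and 0.75 in stressed wounds. Its groups were tight and the days did not overlap in either. Ccl28 rose in stressed wounds by 0.81 (limma adjusted p = 0.0018) from 0.03, 0.06, 0.01 and -0.07, and its change in unstressed wounds, from -0.2, -0.18, -0.21 and 0.15, was 0.43 (adjusted p = 0.056 in limma). Another of its probe sets rose in both, by 0.67 and 0.68 (limma adjusted p = 7e-04 and 0.00059 over every probe set), and the third was called in neither (0.19 and 0.13, adjusted p = 0.16 and 0.35).

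Cxcl14 rose in unstressed wounds by 1.58 (SE 0.47, limma adjusted p = 0.011), with all day 14 arrays above all day 6 arrays, and its second probe set gave 1.04 (limma adjusted p = 0.056 over every probe set). In stressed wounds it went from 0.07, 0.01, 0.61 and 0.4 downward by -0.78, which was not called (limma adjusted p = 0.16). Cxcl13 had changes of 2.02 in unstressed and -1.68 in stressed wounds, neither called (limma adjusted p = 0.058 and 0.1), and its second probe set rose by 1.98 in unstressed wounds (adjusted p = 0.00019 in limma over every probe set). Cxcl12 read -0.6, 0.35, 0.24 and -0.02 in unstressed and 0.12, -0.61, 0.09 and -0.13 in stressed wounds of day 6 and was not called in either (-0.1 and -0.78), while another of its probe sets rose by 0.35 in stressed wounds (limma adjusted p = 0.031 over every probe set). Ccl1, Ccl17, Ccl22, Ccl20 and Ccl25 were not called in either, with changes between -0.41 and 0.38. At day 14 Ccl17 read 0.04, -0.31, -0.27 and -0.3 in unstressed and 0.72, 0.56, -0.02 and -0.13 in stressed wounds, Ccl22 read 0.16, -0.02, -0.5 and -0.25 against 0.23, 0.17, -0.25 and -0.51, and Ccl1 read 0.11, 0.07, -0.02 and 0.54 against 0.75, 0.02, -0.08 and 0.05.

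**Figure D4:**
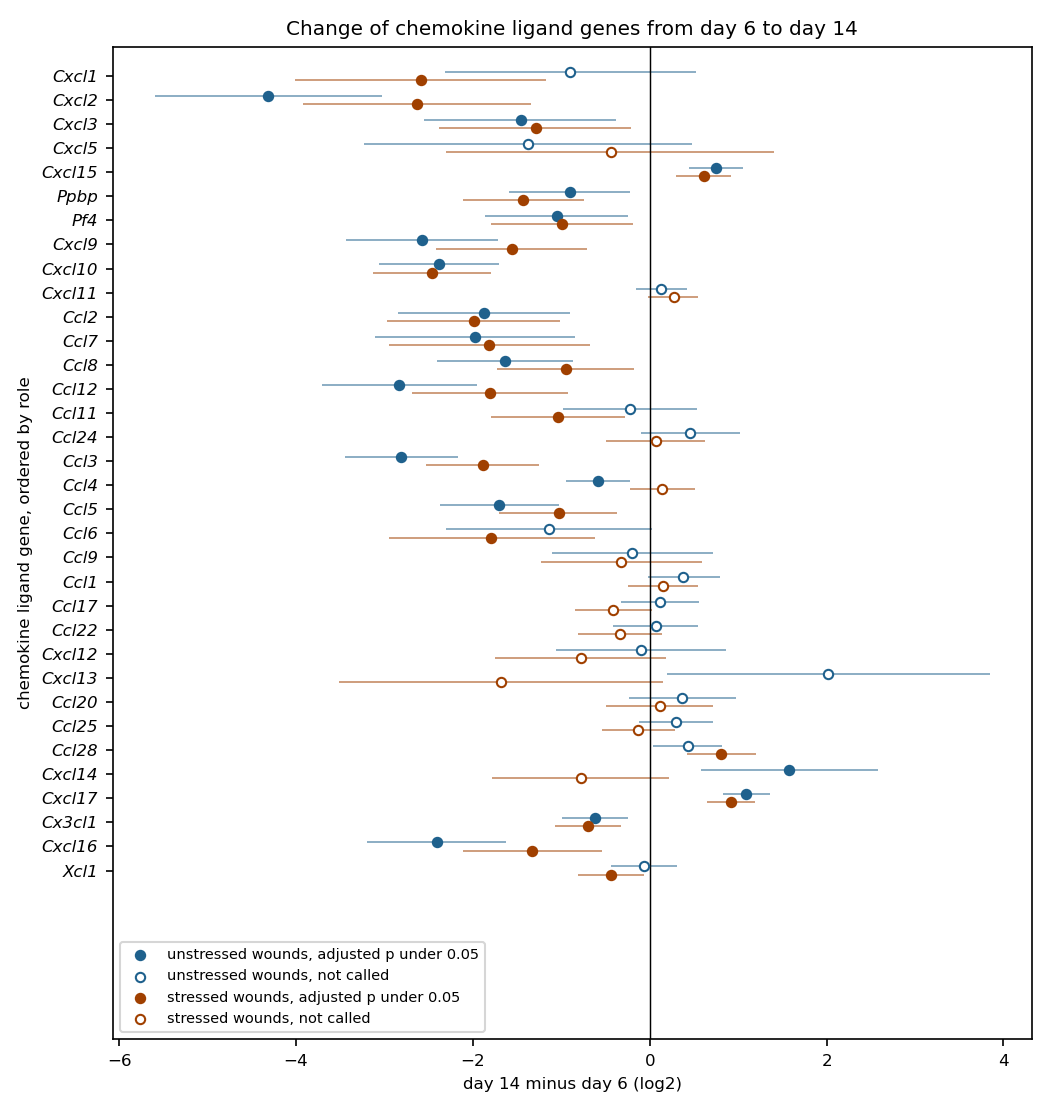
Day 14 minus day 6 log2 difference of each chemokine ligand gene in unstressed (blue) and stressed (brown) wounds, with points for the limma estimate, filled where the adjusted p was under 0.05, and bars for the 95% interval. Cxcl2, Ccl12, Ccl3, Cxcl9, Cxcl16 and Cxcl10 lie furthest to the left in unstressed wounds, and Cxcl15 and Cxcl17 lie right of 0 in both.

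Day 6 holds low-Xist arrays alone, so time was also compared without the high-Xist arrays of day 14. Then 14 members were called in unstressed and 16 in stressed wounds, and without the low-Xist arrays of day 14 there were 16 and 17. Without the high-Xist arrays 7 calls were lost in stressed wounds, those of Ccl5 (-0.96), Ccl7 (-1.21), Ccl8 (-0.72), Cxcl1 (-1.85), Cxcl3 (-1.09), Cxcl16 (-0.61) and Xcl1 (-0.44), with limma adjusted p-values of 0.063 to 0.2. In unstressed wounds 5 were lost, those of Cx3cl1 (-0.35), Cxcl3 (-1.52), Cxcl14 (1.07), Pf4 (-0.82) and Ppbp (-0.89), with limma adjusted p-values of 0.053 to 0.12. After quantile normalization 6 were lost in unstressed wounds, those of Ccl2 (-1.16), Ccl4 (-0.47), Ccl7 (-1.1), Cxcl3 (-1.48), Pf4 (-0.56) and Ppbp (-0.69), with limma adjusted p-values of 0.059 to 0.22. In stressed wounds 3 were lost, those of Ccl5 (-1), Cxcl3 (-1.55) and Xcl1 (-0.49), with limma adjusted p-values of 0.053 to 0.1.

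Several called changes rested on single arrays. In unstressed wounds the limma calls were lost for Pf4 without day 6 replicates 1 or 2 or day 14 replicate 3 (-1.01, -0.92 and -0.7), for Ppbp without day 6 replicates 1 or 2 or day 14 replicates 1 or 4 (-0.6, -0.85, -0.85 and -0.88) and for Cxcl3 without day 6 replicates 3 or 4 (-1.1 and -1.17).

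In stressed wounds the limma call of Ccl11 was lost without day 6 replicates 3 or 4 or day 14 replicate 2 (-0.95, -0.98 and -0.93), and that of Ccl8 without day 6 replicates 2, 3 or 4 or day 14 replicates 1, 3 or 4 (-0.99 to -0.78). Cxcl3 lost it without day 6 replicates 1, 2 or 3 or day 14 replicates 1, 3 or 4 (-1.33 to -0.86), Pf4 without day 6 replicates 1, 2 or 3 or day 14 replicates 1 or 3 (-1 to -0.65), and Xcl1 without any 1 array except day 6 replicate 2 (-0.47 to -0.33). The calls of Ccl12, Ccl3, Cxcl2, Cxcl9, Cxcl10, Cxcl15 and Cxcl17 held in both kinds of wound under every alternative run for time, none of which takes the second probe set of Cxcl9 or Cxcl15 alone.

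The 52 chemokine ligand probe sets were also fitted one by one. At day 6 0 were called in limma (0.0257% of all probe sets with 1 symbol), and at day 14 2 were higher and 2 lower with loading (7.35% of all). The higher ones were those of Ccl12 and the second of Cxcl16, and both lower ones were those of Cxcl13, while Ccl8 (1.23, limma adjusted p rounding to 0.05) lost its call. From day 6 to day 14, 7 rose and 17 fell in unstressed wounds (40.2%), and 6 rose and 18 fell in stressed wounds (45.3%). For the difference of the loading effects 0 were called (0.00858%). Besides Cxcl1, Cx3cl1 and Ccl9, the probe sets of Cxcl12 lay on both sides of 0 for loading at day 14 (-0.81, -0.41 and 0.36), as did those of Cxcl13 over time in stressed wounds (-1.68 and 0.71).

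Receptors and signals of the pathway were counted in the same fit, where 3.88% of all genes were called higher and 4.27% lower with loading at day 14. Of 22 chemokine receptors measured, 3 were called higher and none lower. Ccr1, the receptor of Ccl3, Ccl5, Ccl6 and Ccl9, was higher by 2.33 (SE 0.36, limma adjusted p = 0.0022). Ccr2, the receptor of Ccl2, Ccl7 and Ccl12, was higher by 1.31 (SE 0.38, limma adjusted p = 0.047). The neutrophil receptor Cxcr2 was higher by 0.63 (SE 0.19, limma adjusted p = 0.047). The median receptor difference was 0.2. Of 18 cytokines that induce chemokines, 2 were called higher, Il33, an alarmin of epithelium and stroma (2.87, limma adjusted p = 0.001), and Osm, a cytokine of the interleukin 6 family made by myeloid cells (0.67, adjusted p = 0.019). Of 18 NF-kappaB pathway genes, 2 were called higher, Vcam1, an endothelial adhesion molecule (3.01, limma adjusted p = 0.0015), and Nfkbie, an inhibitor of NF-kappaB (1.17, adjusted p = 0.0086), and the median was 0.03. At day 6 no gene of the 3 lists was called in limma (0.055% of all genes). At an unadjusted p of 0.05, 1 of 22 receptors, 4 of 18 cytokines and 0 of 18 NF-kappaB pathway genes were higher (3.26% of all genes). From day 6 to day 14, 12 of 18 NF-kappaB pathway genes fell in unstressed and 13 in stressed wounds (31.8% and 34.3% of all genes), and 1 rose in each (23.1% and 24%). Of the 22 receptors 8 and 7 fell and 4 and 3 rose, and of the 18 cytokines 8 and 7 fell and 5 and 4 rose. Of 14 macrophage and monocyte markers 11 fell in unstressed and 10 in stressed wounds, and 1 rose in each. The part of these lists in the fall of the ligands was not tested.

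Markers of several cell types differed with loading at day 14 beside these ligands, where 3.88% of all genes were called higher and 4.27% lower. Of 14 macrophage and monocyte markers 10 were called higher and none lower, with a median of 1.34. Among the 10 were C1qb (1.5), Lyz2 (1.74), Fcgr1 (1.72) and Adgre1 (1.44) with limma adjusted p-values of 0.0035 to 0.0059. Of the 14 markers 13 lay above 0, and 1 lay the other way at -1.1 and was not called. The mean of the list ranged from -2.08 to -1.26 in unstressed and from -0.91 to 0.11 in stressed wounds of day 14, without overlap, and its part in the differences of Ccl12 and Ccl8 was not tested. Of 9 neutrophil markers 2 were called higher, S100a8 (2.78, limma adjusted p = 0.038) and Cxcr2, with list means of -1.04 to -0.47 and -0.11 to 0.82. Of 9 dendritic and Langerhans cell markers 1 was, Itgax (1.45, adjusted p = 0.0057 in limma), with list means of -0.73 to -0.09 and -0.29 to 0.42.

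Of 8 fibroblast markers 4 were called higher in stressed wounds of day 14, among them Col3a1 (3.02, limma adjusted p = 0.00015) and Col1a2 (2.2, adjusted p = 0.00041), with list means of -1.88 to -0.86 in unstressed and -0.33 to 0.2 in stressed arrays. In the other direction, 5 of 8 skeletal muscle markers and 5 of 7 adipocyte markers were called lower, with muscle means of -1.28 to 0.73 and -4.09 to -0.43 and adipocyte means of 0.56 to 2.15 and -2.17 to 0.35. None of the 8 T cell, 4 B cell, 7 mast cell, 5 eosinophil, 6 platelet, 6 endothelial or 7 keratinocyte markers was called with loading at day 14 in limma. At an unadjusted p of 0.05 these lists held 0, 1, 1, 0, 1, 3 and 2 genes in that order, the platelet gene lower and the others higher. Of all genes 11.1% were higher and 12.9% lower at that p. The platelet list holds the members Pf4 and Ppbp, the receptor Cxcr2 is also in the neutrophil list, Ccr7 and Xcr1 in the dendritic list and Ccr3 in the eosinophil list. At day 6 no marker was called, although 5 of 8 fibroblast markers were higher at an unadjusted p of 0.05 (3.26% of all genes). The day 6 fibroblast mean ranged from -0.49 to 0.06 in unstressed and from 0.29 to 0.58 in stressed wounds, and the chemokine ligand mean from -0.38 to 0.25 and from 0.32 to 0.78. The part of these marker shifts in the ligand differences was not tested.

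**Figure D5:**
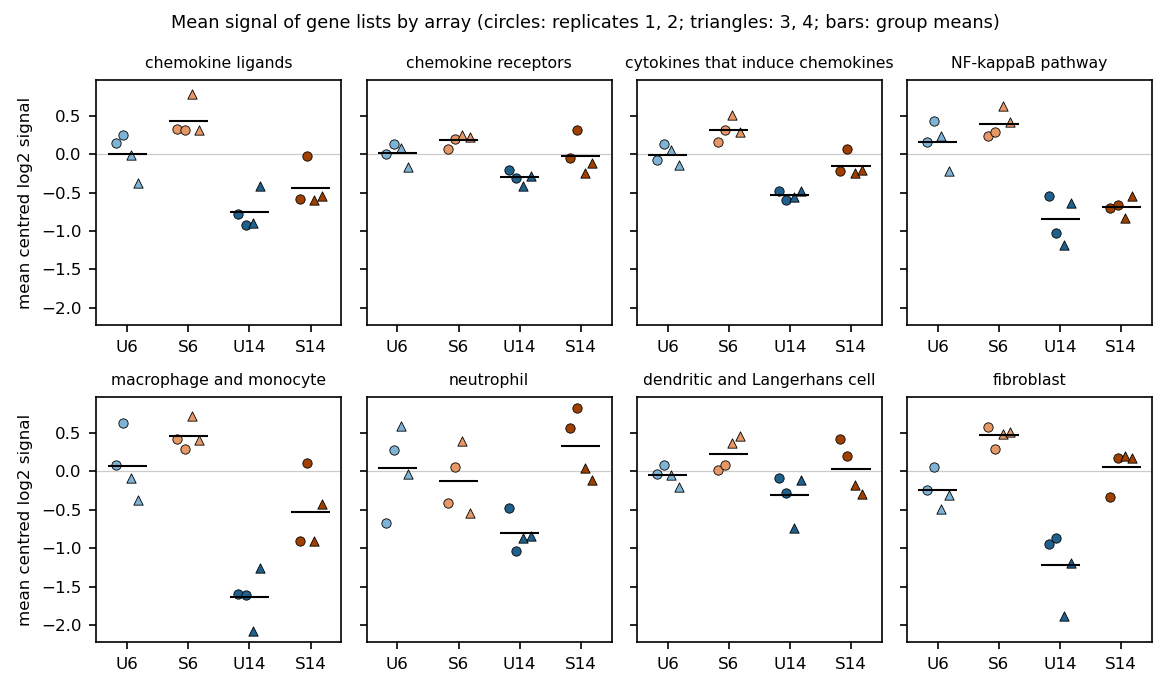
Mean centred log2 signal of the chemokine ligands and of 7 other gene lists in each array (points; circles replicates 1 and 2, triangles replicates 3 and 4), with bars at the group means and with U6 and S6 for unstressed and stressed wounds of day 6 and U14 and S14 for those of day 14. At day 14 the macrophage, neutrophil and fibroblast means of the stressed arrays lie above all unstressed arrays. The means of the cytokines that induce chemokines do so too (-0.6 to -0.48 unstressed, -0.24 to 0.07 stressed). The chemokine ligand means of the groups overlap (-0.92 to -0.41 unstressed, -0.59 to -0.03 stressed).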

How the data were processed

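RNA of 16 wounds was hybridised to 1 Affymetrix array each. Deposited signals are logarithms, taken as log2, from GeneSpring GX 11.0, per the labels and series design, with perfect-match and mismatch oligonucleotides (20 pairs per gene). Background correction, summarization, normalization and detection steps were not given in the sources used here. Each probe set was centred, and the largest range, 10.08, is too wide for log10 of a 16-bit scan (4.82).

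One probe set stood for each of 18194 genes. Group means of all 16 arrays were fitted in R 4.3.3 with limma 3.58.1 (lmFit, eBayes), with 5 contrasts and a threshold of 0.05 after Benjamini-Hochberg adjustment over all genes. The fit was tested on simulated data. Figures used Python 3.11.15, pandas 2.3.3 and matplotlib 3.10.9.

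Every member could be named, with values in every array if called in any contrast or among the 3 smallest p-values of its role in a loading contrast. Other genes come from fixed pathway and marker lists, up to 4 per list called with loading. Members and lists were chosen with earlier results of these data known. Same-numbered day 14 arrays deviated together (correlations 0.3, 0.18, 0.27 and 0.19), each above 0.1, although unstressed replicate 2 went best with stressed replicate 1. Same-numbered arrays of day 14 also share an Xist class, so pairing and class cannot be told apart. The main fit held no block, and replicate number entered as a block only in an alternative. Alternatives covered scaling, weights, probe sets, filters, the block, Xist classes and single arrays.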

Additional observations from a re-analysis of the deposited data

Results flagged for a closer look

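In 10 of 136 groups of 4 arrays (7.35%) 1 array stood further from the other 3 than Dixon's critical value for 4 samples allows, and chance gives about 1 in 20. In unstressed wounds of day 6, Ccl1 read -0.47 in replicate 3 (the others -0.13 to -0.11), Ccl28 read 0.15 in replicate 4 (-0.21 to -0.18) and Cxcl15 read 0.09 in replicate 2 (-0.1 to -0.08). In stressed wounds of day 6, Ccl3 read -1.27 in replicate 2 (0.16 to 0.37). In unstressed wounds of day 14, Ccl2 read -1.22 (-1.96 to -1.85) and Ccl4 read -0.08 (-0.73 to -0.68), both in replicate 4, and Ccl17 read 0.04 in replicate 1 (-0.31 to -0.27). In stressed wounds of day 14, Ccl1 read 0.75 in replicate 1 (-0.08 to 0.05), Cxcl10 read -1.86 in replicate 3 (-1.55 to -1.49) and Cxcl3 read 0.13 in replicate 2 (-0.82 to -0.67).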

How the results depend on the processing

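At day 6 the count of members called (0) became 2 with quantile normalization and 5 with array weights, and was 0 to 0 when single arrays were left out. At day 14 the 3 calls became 0 with quantile normalization, 6 with array weights (2 shared), 1 with only the groups compared, 5 with Xist class as a covariate, 7 without the high-Xist arrays and 0 without the low-Xist arrays, and 0 to 7 with single arrays left out. The difference between days (0) became 2 with array weights, 3 without the high-Xist arrays and 1 without unstressed day 6 arrays 1 and 2, a choice made after seeing the data, and 0 to 1 with single arrays left out. Single arrays left 17 to 19 of the unstressed time calls and 16 to 19 of the stressed ones, and no time alternative moved a count by over 1.5 times. With the replicate block 0 members were called at day 6, 3 at day 14 (2 of them as before), 0 for the difference, 19 for unstressed and 20 for stressed time. The block also joined same-numbered arrays of day 6 and, for time, of the 2 days. Their correlations were -0.41 to 0 at day 6 and -0.18 to 0.12 between days, so pairing is not shown there. The block added Ccl28 in unstressed wounds (limma adjusted p = 0.037) and lost Ccl8 (0.067) and Xcl1 (0.069) in stressed wounds. Cx3cl1 in stressed wounds over time turned to 0.01 with the mean of its probe sets. Of the other values per gene, 1078 kept direction and side of the threshold, 110 lost and 47 gained a call. The cause was not tested.

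Over all genes, the 10 calls of day 6 became 306 with quantile normalization, 453 with array weights, 24 with only the groups compared and 1 with the replicate block. The 1483 of day 14 became 263, 2726, 95 and, with the block, 1341, and 2232 with the Xist covariate, 3393 without the high-Xist and 485 without the low-Xist arrays. The 7 of the difference became 569 with array weights, 1418 without the high-Xist arrays and 19 with the block. Centred values carry no background level, so signal over background could not be judged.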
